A study of Homo sapiens with 18 samples.

Results

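p53 is a transcription factor that is held at a low level in unstressed cells and is stabilized when DNA is damaged or the cell is under other stress. It then binds response elements in or near its target genes, whose products halt the cell cycle, repair DNA, limit oxidants, feed back on p53 itself or promote cell death. H2O2 oxidizes DNA, and retinal pigment epithelium lives with a high load of oxidants, which makes the p53 targets a group of interest in cells treated with an oxidant or with an antioxidant. The 36 genes described here were given as a list of known direct p53 targets and were found by their symbols among the 23411 symbols of the count tables. All 36 symbols were present.

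mRNA was sequenced from 18 samples of ARPE-19, a spontaneously immortalized line of human retinal pigment epithelium. All cells carried a Cas9 lentivirus, in control cells without a guide RNA. NRF2 ΔC cells are a single clone with a guide RNA against the last exon of NFE2L2, which encodes the antioxidant transcription factor NRF2, and the edited alleles hold stop codons at positions 503 and 505. Cells of both kinds were left untreated (given water), treated with 1 mM NACET, the cell-permeable ethyl ester of N-acetylcysteine, or treated with 0.2 mM H2O2, with 3 samples in each of the 6 groups. The series' design text gives 8 h of treatment after 40 h in 10% serum, and the sample protocols give 2 h after 22 h in 1% serum. The authors' paper likewise gives 8 h, 40 h and 10% serum. Because NRF2 ΔC is 1 clone, an effect of the edit cannot be told apart from other features of that clone. The labels do not say that replicates came from separate cultures, so p-values measure the spread between these samples.

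The libraries held from 16673306 to 25951154 counts on genes. NFE2L2 was at mean levels of 106 to 141 normalized counts scaled to a common library size (CPM) in the 6 groups and was called in no comparison, and since the edit leaves a transcript its level does not check the labels. Of 12 markers of retinal pigment epithelium, 6 had a median over 1 CPM, among them OTX2 (105 to 180 CPM) and MITF (64.9 to 187 CPM). CRX had no count in any library, RPE65 at most 1 count and TTR at most 2. KRT8, a keratin of simple epithelia, was at 427 to 678 CPM, and PTPRC, PECAM1 and CDH5, which mark leukocytes and endothelium, had at most 3 counts in a library. PDE6B, a photoreceptor gene, reached 6.86 CPM in control cells, and the summed photoreceptor markers were at 3.98 to 6.91 CPM there against at most 0.213 CPM in NRF2 ΔC cells. With H2O2 the epithelial marker BEST1 rose by 1.70 in control and 3.76 in NRF2 ΔC cells on the log2 scale. BEST1 was low, at 4 to 83 counts in a library. LRAT and MITF fell with H2O2 by 0.78 and 0.74 in NRF2 ΔC cells, calls that held in 1 of 6 fits with a library left out. The part of such shifts in the results on p53 targets was not tested.

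The p53 response element consists of 2 half-sites of 10 bases, each with a core CNNG in the middle. Windows from 3000 bases before to 3000 bases after the start site of the canonical transcript (GENCODE on GRCh37, the build of the files) were searched for 2 adjacent half-sites, scored against the p53 half-site consensus with the C and G of both cores required and at most 2 mismatches elsewhere. The consensus reads alike on both strands. Such a match lay in 18 of the 36 windows (50.0%), against 931 of 20099 windows of all protein-coding genes (4.63%). With no mismatch there were 2 (5.56% against 0.0796%). Of 20 matches in the target genes 14 lay in introns, 5 upstream of the start site and 1 in an exon. The matches below were picked as examples from the roles described here, beside the 2 without a mismatch. They are written on the strand of the gene (forward except for PLK2 and ZMAT3) from 5′ to 3′, with the cores of both half-sites in capitals.
CDKN1A (chr6:36644226-36644245, 2256 bases upstream): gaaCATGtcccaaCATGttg
BTG2 (chr1:203272770-203272789, 1868 bases upstream): acgCATGttcaggCATGcat
MDM2 (chr12:69202703-69202722, intron, 756 bases downstream): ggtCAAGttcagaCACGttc
DDB2 (chr11:47236520-47236539, exon, 4 bases downstream): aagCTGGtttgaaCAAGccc
ACER2 (chr9:19409520-19409539, intron, 522 bases downstream): gaaCCTGccgggaCAAGtct
FAS (chr10:90751066-90751085, intron, 662 bases downstream): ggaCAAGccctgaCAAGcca
GDF15 (chr19:18496118-18496137, 840 bases upstream): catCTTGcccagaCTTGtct
PLK2 (chr5:57758101-57758120, 2198 bases upstream): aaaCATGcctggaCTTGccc
ZMAT3 (chr3:178787976-178787995, intron, 1612 bases downstream): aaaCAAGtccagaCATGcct
A match is a run of letters and not a measured binding site, and a gene without one in its window, such as SESN1, SESN2 or FDXR, may have an element elsewhere. Genes with and without a match were called about as often. With H2O2 in control cells 10 of 17 tested genes with a match and 9 of 17 without were called higher, with median log2 fold changes of 0.71 and 0.70. In NRF2 ΔC cells 12 of 17 and 13 of 17 were called, with medians of 1.10 and 1.03. PLK2 and ZMAT3, the only 2 targets with a match free of mismatches, were called in neither H2O2 comparison with untreated cells.

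Which targets changed was asked for each treatment in each cell line. A gene was called where the quasi-likelihood test of edgeR gave an adjusted p (Benjamini-Hochberg, over all genes tested) under 0.05 and the log2 fold change was at least 0.6 in size. With H2O2, 19 of 34 tested targets rose in control cells and none fell, where 2.96% of all genes tested were called higher and 3.37% lower. In NRF2 ΔC cells 25 of 34 rose and none fell, where 4.26% of all genes were called higher and 5.55% lower. The median log2 fold change over the targets reached 0.71 in control cells and 1.05 in NRF2 ΔC cells, against a median of all genes of -0.00 and -0.01. With NACET, 5 of 33 tested targets fell in control cells and none rose (1.35% of all genes called lower, 1.39% higher). In NRF2 ΔC cells 2 of 33 fell and 1 rose with NACET (0.93% lower, 0.458% higher). The median over the targets was -0.32 in control cells and -0.34 in NRF2 ΔC cells with NACET. SPATA18 and TNFRSF10C, with at most 2 counts and 1 count in any library, were too low to test, and GDF15 was too low to test with NACET. In bulk RNA, more cells responding and a larger response per cell cannot be told apart.

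**Figure D1:**
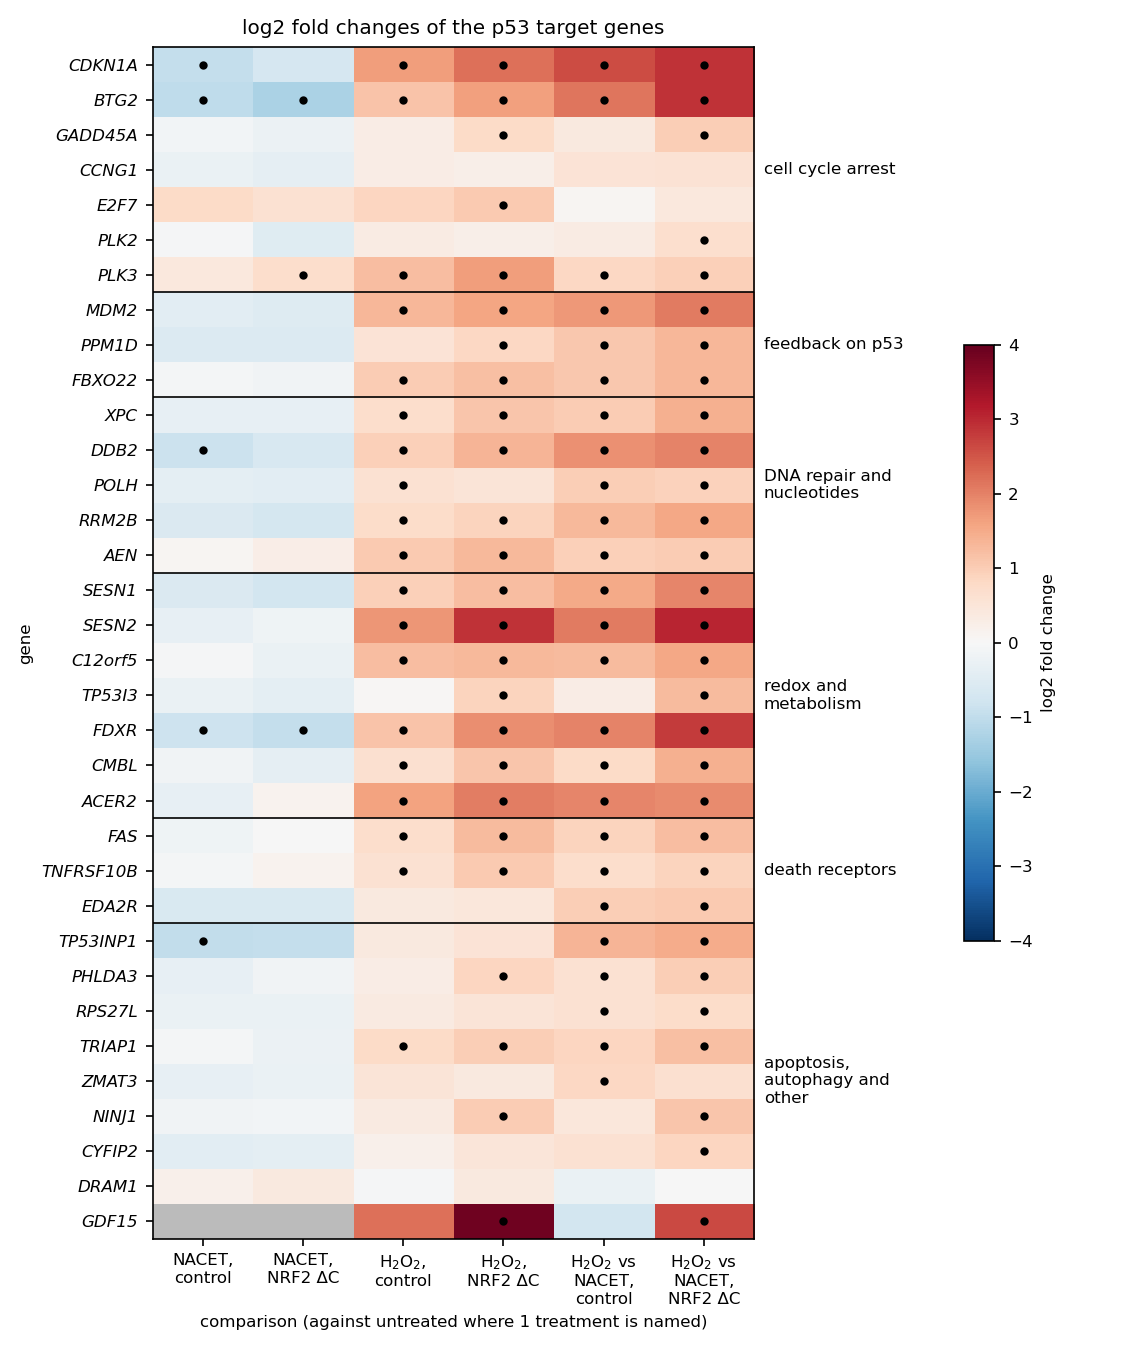
Log2 fold changes of 34 p53 targets (rows, grouped by role) in 6 comparisons (columns), with red for higher and blue for lower levels, grey where a gene was too low to test and a dot where it was called. The H2O2 columns hold 19 calls in control and 25 in NRF2 ΔC cells, all higher, and the NACET columns hold 5 and 3 calls.

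The cell cycle arrest genes included the largest falls with NACET. CDKN1A (chr6:36644237-36655114), which encodes the CDK inhibitor p21, was at 312, 242 and 268 CPM in untreated control cells, at 880, 872 and 888 CPM with H2O2 and at 155, 132 and 135 CPM with NACET. CDKN1A in NRF2 ΔC cells was at 462, 285 and 283 CPM untreated, 1549, 1686 and 1603 CPM with H2O2 and 274, 180 and 192 CPM with NACET. The 3 treatments did not overlap in either cell line, with H2O2 on top and NACET at the bottom. CDKN1A rose with H2O2 by a log2 fold change of 1.69 ± 0.11 (SE) in control cells (adjusted p = 0.000836) and 2.21 ± 0.21 in NRF2 ΔC cells (adjusted p = 0.0015), and fell by 0.95 ± 0.12 on the log2 scale with NACET in control cells (adjusted p = 0.0133). The NACET value in NRF2 ΔC cells was -0.69 ± 0.24 (adjusted p = 0.179), and it was -0.68 and called once the replicate number entered as a block. BTG2 (chr1:203274619-203278730), an antiproliferative factor, was at 47.0, 55.5 and 57.3 CPM in untreated control cells, 88.7, 131 and 135 CPM with H2O2 and 23.0, 24.7 and 31.3 CPM with NACET. BTG2 in NRF2 ΔC cells was at 55.2, 46.4 and 55.9 CPM untreated, 131, 180 and 190 CPM with H2O2 and 21.3, 21.2 and 23.9 CPM with NACET. BTG2 fell with NACET by 1.00 ± 0.14 in control and 1.26 ± 0.12 in NRF2 ΔC cells on the log2 scale (adjusted p = 0.0169 and 0.0101), and rose with H2O2 by 1.15 ± 0.16 and 1.65 ± 0.17.

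PLK3, a stress-responsive kinase, moved one way with both treatments. It was at 11.2, 11.9 and 13.8 CPM in untreated control cells, 25.9, 29.3 and 32.3 CPM with H2O2 and 16.0, 16.0 and 16.9 CPM with NACET. PLK3 in NRF2 ΔC cells was at 15.6, 14.9 and 14.9 CPM untreated, 41.4, 53.4 and 51.0 CPM with H2O2 and 24.7, 26.2 and 23.6 CPM with NACET. NACET samples lay above all untreated samples and below all H2O2 samples in both lines. The rise with NACET was called in NRF2 ΔC cells (0.69 ± 0.11, adjusted p = 0.0317) and not in control cells (0.42 ± 0.12, adjusted p = 0.0989), and the difference between the lines was not called (0.28 ± 0.14). E2F7, a repressor of E2F targets, was at 16.2, 29.6 and 21.6 CPM in untreated control cells, 32.4, 53.1 and 36.3 CPM with H2O2 and 34.5, 50.9 and 28.2 CPM with NACET. E2F7 in NRF2 ΔC cells was at 25.02, 30.2 and 31.7 CPM untreated, 47.3, 78.0 and 57.6 CPM with H2O2 and 42.6, 43.4 and 47.7 CPM with NACET. E2F7 was called with H2O2 in NRF2 ΔC cells (1.05 ± 0.20), and with the replicate block also in the other 3 comparisons with untreated cells (0.86 with H2O2 in control cells, 0.76 and 0.61 with NACET in control and NRF2 ΔC cells). GADD45A, a growth arrest and DNA damage protein, rose with H2O2 in NRF2 ΔC cells (0.77 ± 0.15), with group means between 148 and 300.1 CPM over all 6 groups. CCNG1 (cyclin G1) was called in no comparison, and PLK2, a kinase related to PLK3, in none with untreated cells.

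**Figure D2:**
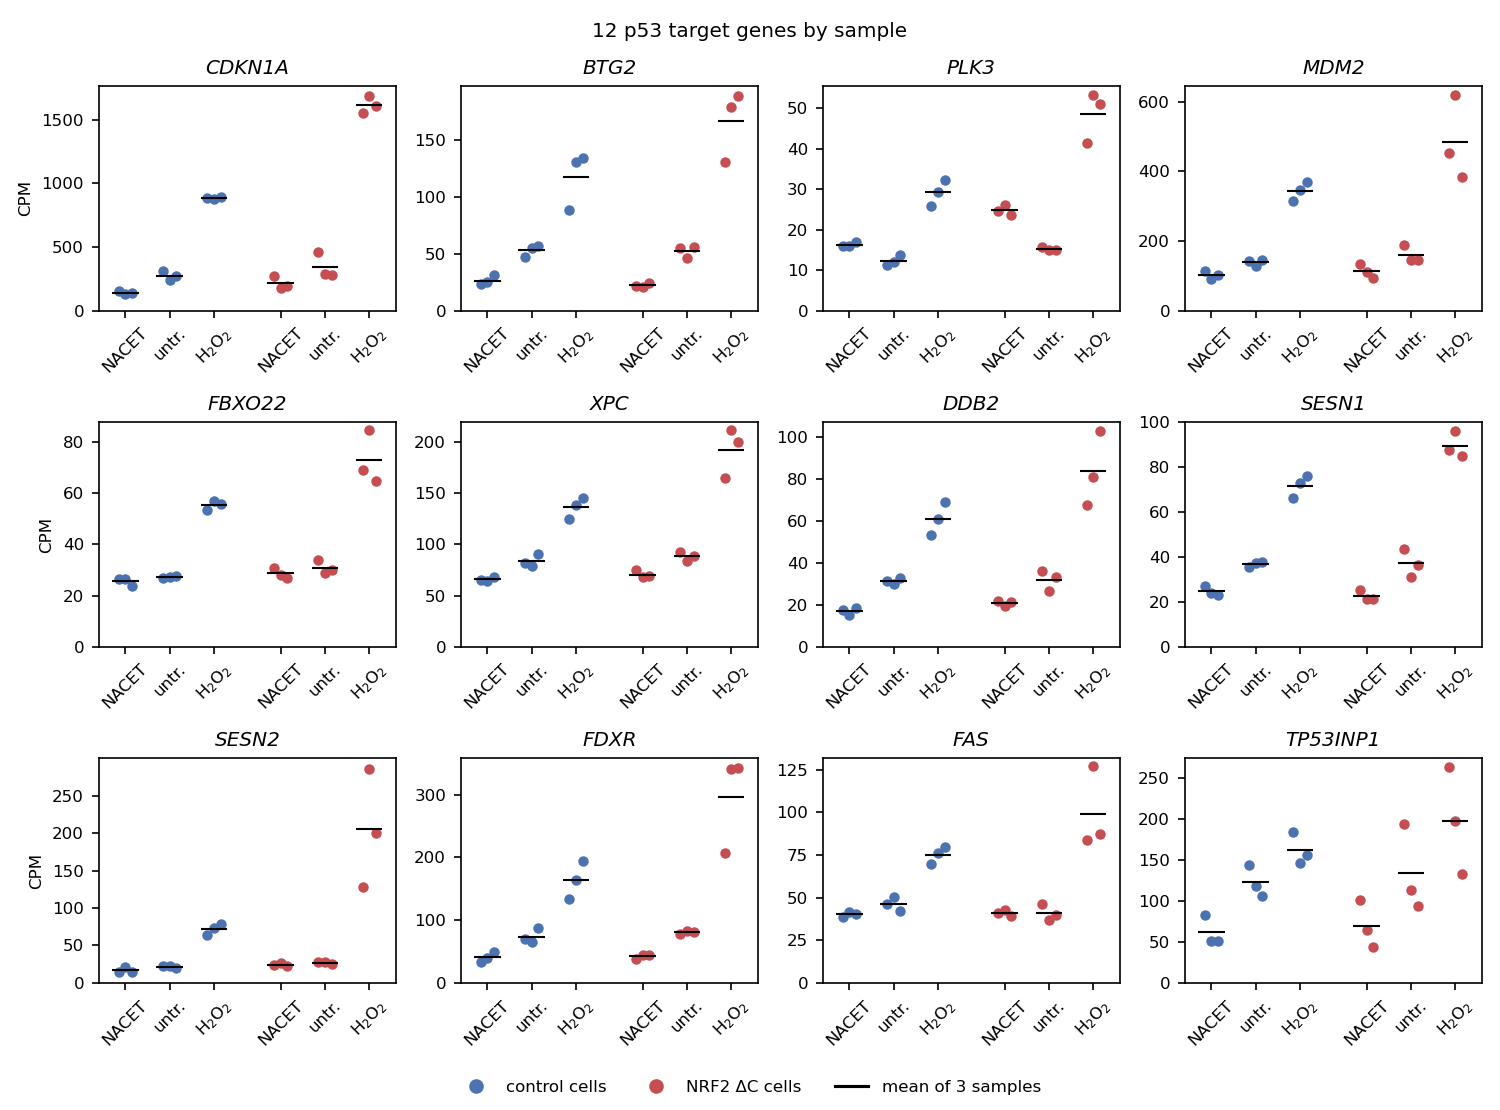
CPM of 12 p53 targets in each sample (points) with the mean of 3 samples (lines), for NACET, untreated and H2O2 in control (blue) and NRF2 ΔC cells (red), each panel on its own axis from 0. H2O2 samples lay above untreated and NACET samples of the same line in 11 panels, and in TP53INP1 the groups of NRF2 ΔC cells overlapped.

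Of 3 genes of the feedback on p53, 2 rose with H2O2 in control cells and 3 in NRF2 ΔC cells (2.96% and 4.26% of all genes). MDM2 (chr12:69201957-69239324), the ubiquitin ligase that targets p53 for degradation, was at 142, 128 and 145 CPM in untreated control cells, 314, 347 and 370 CPM with H2O2 and 114, 91.6 and 103 CPM with NACET. MDM2 in NRF2 ΔC cells was at 188, 144 and 144 CPM untreated, 452, 620 and 384 CPM with H2O2 and 133, 111 and 92.6 CPM with NACET. MDM2 rose by 1.32 ± 0.10 in control and 1.59 ± 0.20 in NRF2 ΔC cells with H2O2 (adjusted p = 0.000954 and 0.00399), and its NACET samples lay below all untreated samples without a call (-0.42, adjusted p = 0.0787 and -0.51, adjusted p = 0.160). FBXO22, an F-box protein that can act on p53, was at 26.8, 27.3 and 27.7 CPM in untreated control cells, 53.4, 57.0 and 55.6 CPM with H2O2 and 26.5, 26.4 and 23.9 CPM with NACET. FBXO22 in NRF2 ΔC cells was at 33.8, 28.9 and 30.2 CPM untreated, 69.1, 84.8 and 64.9 CPM with H2O2 and 30.8, 28.2 and 26.9 CPM with NACET. Its rises with H2O2 were 1.02 ± 0.08 and 1.21 ± 0.15, and reads were counted without regard to strand while 17.9% of its exon bases overlap NRG4 on the opposite strand. PPM1D, the phosphatase WIP1 that removes activating phosphates from p53, was at 54.6, 51.0 and 51.5 CPM in untreated control cells, 76.6, 75.8 and 78.6 CPM with H2O2 and 39.1, 33.8 and 34.3 CPM with NACET. PPM1D in NRF2 ΔC cells was at 49.7, 43.2 and 47.2 CPM untreated, 78.1, 92.0 and 81.1 CPM with H2O2 and 34.3, 32.7 and 31.1 CPM with NACET. PPM1D did not overlap between any treatments of a line, but in control cells its changes (0.56 with H2O2, adjusted p = 0.00535, and -0.54 with NACET, adjusted p = 0.0311) fell short of the fold limit of 0.6, and its rise with H2O2 was called in NRF2 ΔC cells (0.82 ± 0.13).

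Genes listed under DNA repair and nucleotide supply rose with H2O2, 5 of 5 in control and 4 of 5 in NRF2 ΔC cells. Of all genes 2.96% and 4.26% were called higher. AEN, a nuclease of apoptosis, was counted in this group. DDB2 (chr11:47236016-47260768), which recognizes damage by ultraviolet light, was at 31.5, 29.9 and 32.5 CPM in untreated control cells, 53.1, 60.9 and 68.8 CPM with H2O2 and 17.7, 15.1 and 18.4 CPM with NACET. DDB2 in NRF2 ΔC cells was at 35.9, 26.7 and 33.3 CPM untreated, 67.6, 81.1 and 103 CPM with H2O2 and 21.9, 19.4 and 21.4 CPM with NACET. DDB2 rose by 0.97 ± 0.11 and 1.37 ± 0.19 with H2O2 and fell by 0.86 ± 0.11 with NACET in control cells (adjusted p = 0.0137), and with NACET in NRF2 ΔC cells it was at -0.63 (adjusted p = 0.0717), a value called with the replicate block. XPC, a damage sensor of nucleotide excision repair, was at 82.0, 78.8 and 90.8 CPM in untreated control cells, 125, 138 and 146 CPM with H2O2 and 65.3, 64.2 and 68.1 CPM with NACET. XPC in NRF2 ΔC cells was at 92.8, 84.2 and 88.4 CPM untreated, 165, 212 and 200 CPM with H2O2 and 74.6, 68.0 and 69.1 CPM with NACET. Its H2O2 samples lay above and its NACET samples below all untreated samples in both lines, and only the rises with H2O2 were called (0.70 ± 0.09 and 1.10 ± 0.14).

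RRM2B, a ribonucleotide reductase subunit that supplies nucleotides for repair, was at 124, 110 and 96.5 CPM in untreated control cells, 191, 180 and 179 CPM with H2O2 and 91.7, 69.1 and 59.3 CPM with NACET. RRM2B in NRF2 ΔC cells was at 183, 131 and 126 CPM untreated, 301, 315 and 207 CPM with H2O2 and 119, 88.4 and 67.0 CPM with NACET. RRM2B rose with H2O2 by 0.74 ± 0.11 and 0.88 ± 0.20, and replicate 1 was highest in 5 of the 6 groups. With NACET in NRF2 ΔC cells it was at -0.70 ± 0.23 (adjusted p = 0.160), and at -0.72 and called with the replicate block. AEN, an exonuclease of apoptosis, was at 56.7, 63.0 and 66.0 CPM in untreated control cells, 118, 133 and 133 CPM with H2O2 and 62.3, 67.3 and 64.7 CPM with NACET. AEN in NRF2 ΔC cells was at 59.8, 75.4 and 76.3 CPM untreated, 134, 206 and 190 CPM with H2O2 and 75.8, 87.8 and 93.0 CPM with NACET. AEN rose with H2O2 by 1.05 ± 0.09 and 1.31 ± 0.19, and its NACET and untreated samples overlapped in both lines. POLH, a polymerase that copies past DNA lesions, was called with H2O2 in control cells (0.61 ± 0.09) and not in NRF2 ΔC cells (0.51 ± 0.14, adjusted p = 0.0523), a difference of -0.08 ± 0.16 that was itself not called.

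Of 7 redox and metabolic genes, 6 rose with H2O2 in control and 7 in NRF2 ΔC cells, where 2.96% and 4.26% of all genes were called higher. SESN2 (chr1:28586029-28609002), a sestrin that restrains mTORC1 and supports the reduction of peroxiredoxins, was at 22.8, 22.1 and 19.3 CPM in untreated control cells, 63.5, 73.6 and 79.0 CPM with H2O2 and 15.2, 20.7 and 14.9 CPM with NACET. SESN2 in NRF2 ΔC cells was at 28.5, 27.3 and 25.7 CPM untreated, 128, 286 and 200 CPM with H2O2 and 24.2, 26.9 and 22.0 CPM with NACET. It rose by 1.75 ± 0.12 in control cells and by 2.89 ± 0.27 in NRF2 ΔC cells (adjusted p = 0.000836 and 0.00146). SESN2 is also known as a target of ATF4 in the integrated stress response. SESN1, its relative, was at 35.6, 37.5 and 37.6 CPM in untreated control cells, 66.3, 72.9 and 76.1 CPM with H2O2 and 27.1, 23.97 and 23.3 CPM with NACET. SESN1 in NRF2 ΔC cells was at 43.7, 31.0 and 36.6 CPM untreated, 87.7, 96.3 and 84.9 CPM with H2O2 and 25.4, 21.3 and 21.3 CPM with NACET. SESN1 rose by 0.96 ± 0.09 and 1.25 ± 0.16 with H2O2, and its NACET values of -0.56 (adjusted p = 0.0303) and -0.73 (adjusted p = 0.0659) each missed one of the limits, with the second called under the replicate block.

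FDXR (chr17:72858619-72869156), the ferredoxin reductase of mitochondria, was at 69.2, 65.3 and 86.8 CPM in untreated control cells, 134, 164 and 194 CPM with H2O2 and 33.97, 39.6 and 49.8 CPM with NACET. FDXR in NRF2 ΔC cells was at 77.5, 82.5 and 81.3 CPM untreated, 208, 341 and 342 CPM with H2O2 and 38.4, 43.8 and 44.3 CPM with NACET. FDXR was called in all 4 comparisons with untreated cells, with rises of 1.16 ± 0.16 and 1.86 ± 0.20 with H2O2, and it fell by 0.83 ± 0.16 and 0.95 ± 0.11 with NACET (adjusted p = 0.0392 and 0.0135). BTG2 was the only other target called in those 4 comparisons with the treatments in opposite directions. C12orf5 (TIGAR), a phosphatase that lowers glycolytic flux, was at 29.3, 35.6 and 26.6 CPM in untreated control cells, 75.1, 74.6 and 66.3 CPM with H2O2 and 35.6, 30.5 and 22.4 CPM with NACET. C12orf5 in NRF2 ΔC cells was at 42.6, 25.2 and 28.0 CPM untreated, 87.5, 84.5 and 67.7 CPM with H2O2 and 33.1, 24.4 and 23.2 CPM with NACET. It rose by 1.24 ± 0.12 and 1.30 ± 0.21 with H2O2, with untreated and NACET samples overlapping in both lines. A readthrough gene model on the same strand covers 20.8% of its exon bases.

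TP53I3 (PIG3), a quinone reductase homolog, was at 28.2, 28.3 and 26.0 CPM in untreated control cells, 26.1, 28.3 and 31.1 CPM with H2O2 and 24.2, 21.6 and 22.4 CPM with NACET. TP53I3 in NRF2 ΔC cells was at 36.04, 26.7 and 28.5 CPM untreated, 48.6, 60.4 and 62.8 CPM with H2O2 and 26.0, 22.2 and 22.3 CPM with NACET. H2O2 and untreated samples overlapped in control cells (0.05 ± 0.10) and did not in NRF2 ΔC cells, where TP53I3 rose by 0.89 ± 0.17 (adjusted p = 0.0161). CMBL, a hydrolase, was at 50.1, 45.7 and 50.5 CPM in untreated control cells, 71.6, 74.6 and 80.3 CPM with H2O2 and 44.01, 38.9 and 47.7 CPM with NACET. CMBL in NRF2 ΔC cells was at 54.8, 43.8 and 47.4 CPM untreated, 99.0, 116 and 104 CPM with H2O2 and 40.5, 36.5 and 38.9 CPM with NACET. CMBL rose by 0.63 ± 0.09 and 1.10 ± 0.14 with H2O2. ACER2, a ceramidase of the Golgi, was low, at 1.64, 1.30 and 1.09 CPM in untreated control cells, 4.18, 4.43 and 3.82 CPM with H2O2 and 1.29, 1.11 and 0.782 CPM with NACET. ACER2 in NRF2 ΔC cells was at 2.39, 1.12 and 1.15 CPM untreated, 6.63, 7.95 and 4.82 CPM with H2O2 and 2.17, 1.10 and 1.78 CPM with NACET. It rose by 1.62 ± 0.21 and 2.04 ± 0.34 with H2O2.

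The death receptors FAS and TNFRSF10B rose with H2O2 in both lines. FAS, the receptor of FAS ligand, was at 46.1, 50.2 and 42.3 CPM in untreated control cells, 69.9, 76.5 and 79.6 CPM with H2O2 and 38.8, 41.9 and 40.7 CPM with NACET. FAS in NRF2 ΔC cells was at 46.2, 37.2 and 39.9 CPM untreated, 83.7, 127 and 87.1 CPM with H2O2 and 40.9, 43.1 and 39.2 CPM with NACET. Its rises were 0.71 ± 0.10 and 1.25 ± 0.19, and 1 NRF2 ΔC sample with H2O2 stood well above the other 2. TNFRSF10B, the TRAIL receptor DR5, was at 379, 364 and 356 CPM in untreated control cells, 558, 586 and 540 CPM with H2O2 and 362, 347 and 318 CPM with NACET. TNFRSF10B in NRF2 ΔC cells was at 401, 323 and 343 CPM untreated, 721, 845 and 692 CPM with H2O2 and 449, 392 and 361 CPM with NACET. TNFRSF10B rose by 0.62 ± 0.09 and 1.06 ± 0.15, close to the fold limit in control cells, and NACET and untreated samples overlapped in both lines. EDA2R, a receptor of ectodysplasin A2, had H2O2 values of 0.40 and 0.46 that were not called, and NACET values of -0.61 in both lines that were called with the replicate block alone. TNFRSF10C, a TRAIL decoy receptor, was at most at 1 count in a library.

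Among the genes of apoptosis, autophagy and other roles, 1 of 9 tested rose with H2O2 in control and 4 of 9 in NRF2 ΔC cells. AEN was not counted here, and 2.96% and 4.26% of all genes were called higher. TP53INP1, a stress protein that amplifies p53 activity, was at 144, 119 and 106 CPM in untreated control cells, 184, 147 and 156 CPM with H2O2 and 82.5, 50.9 and 51.5 CPM with NACET. TP53INP1 in NRF2 ΔC cells was at 194, 113 and 94.4 CPM untreated, 263, 198 and 133 CPM with H2O2 and 101, 64.6 and 43.9 CPM with NACET. It fell with NACET in control cells by 0.98 ± 0.21 on the log2 scale (adjusted p = 0.0460). In NRF2 ΔC cells, where replicate 1 was highest in every group and treatments overlapped, the NACET value was -0.95 ± 0.35 (adjusted p = 0.199), called with the replicate block. TRIAP1, an inhibitor of apoptosis, was at 36.2, 42.1 and 42.5 CPM in untreated control cells, 66.3, 66.0 and 74.3 CPM with H2O2 and 35.1, 38.1 and 40.2 CPM with NACET. TRIAP1 in NRF2 ΔC cells was at 42.1, 36.5 and 45.9 CPM untreated, 75.5, 92.7 and 83.5 CPM with H2O2 and 35.5, 35.03 and 37.6 CPM with NACET. TRIAP1 rose with H2O2 by 0.78 ± 0.10 and 0.99 ± 0.15. NINJ1, a membrane protein of plasma membrane rupture, was at 113, 105 and 103 CPM in untreated control cells, 126, 145 and 137 CPM with H2O2 and 91.2, 102 and 99.6 CPM with NACET. NINJ1 in NRF2 ΔC cells was at 101, 107 and 89.4 CPM untreated, 170, 237 and 211 CPM with H2O2 and 93.7, 96.9 and 89.3 CPM with NACET. Its rise was called in NRF2 ΔC cells (1.03 ± 0.16), and its value in control cells, 0.35 ± 0.09 with adjusted p = 0.0374, was below the fold limit.

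GDF15, a secreted stress cytokine, was close to the detection limit and uneven. It had 0, 10 and 5 counts in untreated control cells, 15, 30 and 22 counts with H2O2 and 1, 104 and 1 counts with NACET. In NRF2 ΔC cells it had 2, 10 and 10 counts untreated, 58, 141 and 104 counts with H2O2 and 7, 5 and 37 counts with NACET. The rise with H2O2 in NRF2 ΔC cells was 3.88 ± 0.50 (adjusted p = 0.00403) and held without each library in turn, while the value in control cells, 2.21 ± 0.63, was not called (adjusted p = 0.0533) and was called with the replicate block. The 104 counts of NACET replicate 2 in control cells stand apart from the 1 count in each of the others. PHLDA3, an inhibitor of AKT, rose with H2O2 in NRF2 ΔC cells (0.87 ± 0.18) and was at 0.30 in control cells. RPS27L, ZMAT3, CYFIP2 and DRAM1 (a ribosomal protein homolog, an RNA-binding protein, an actin regulator and a lysosomal protein of autophagy) were not called against untreated cells, with H2O2 values between -0.06 and 0.53 in control cells and between 0.38 and 0.51 in NRF2 ΔC cells. DRAM1 had its lowest group mean in control cells with H2O2, the only such gene among the 33 targets with a count in every library.

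The treatments were also set against each other. H2O2 samples had higher levels than NACET samples for 25 of 34 targets in control cells, where 1.43% of all genes were called higher and 2.25% lower. The same held for 30 of 34 in NRF2 ΔC cells, where 3.22% of all genes were called higher and 5.09% lower, and no target was called lower in either line. The 2 lists shared 24 genes, 96.0% of the first and 80.0% of the second. CDKN1A (2.62 ± 0.10 and 2.88 ± 0.19), BTG2 (2.14 ± 0.19 and 2.89 ± 0.17), SESN2 (2.07 ± 0.16 and 3.05 ± 0.28) and FDXR (1.97 ± 0.18 and 2.79 ± 0.21) differed most. This comparison called 6 targets that no comparison with untreated cells had called, or that only NACET had moved: EDA2R (0.99 and 1.05), TP53INP1 (1.37 and 1.47) and RPS27L (0.60 and 0.75) in both lines, ZMAT3 (0.84) in control cells, and PLK2 (0.68) and CYFIP2 (0.86) in NRF2 ΔC cells. No call of these 6 held without each library in turn, all of them being lost without NACET replicate 2 of the line concerned. Among all targets 18 of 25 calls in control and 19 of 30 in NRF2 ΔC cells held without each library, and in NRF2 ΔC cells 19 were called without H2O2 replicate 2 and 20 without NACET replicate 2. Of all genes 1.87% and 1.9% were called in these fits, against 8.31% with every library. The H2O2 and NACET samples are those of the comparisons with untreated cells. Of 33 targets with a count in every library, 30 had their highest group mean in NRF2 ΔC cells with H2O2 and 29 had their lowest in a NACET group, 16 in control and 13 in NRF2 ΔC cells. Over all 13908 tested genes with a count in every library these shares were 29.5% and 30.4%. Within pairs of samples with the same replicate number, H2O2 was above untreated in all 3 pairs for 31 of these 33 genes in control and 33 of 33 in NRF2 ΔC cells, and NACET was below untreated in all 3 pairs for 27 and 26. Over all those genes 33.4% and 34.5% were higher in every pair with H2O2, and 32.6% and 29.2% were lower in every pair with NACET.

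Leaving out 1 library, in fits without the replicate block, bore mainly on the NACET calls. For H2O2, 16 of 19 calls in control cells held in all 6 fits with a library left out, the exceptions being POLH, CMBL and TNFRSF10B, whose log2 fold changes lie near the limit of 0.6, and 18 of 25 held in NRF2 ΔC cells. The 7 that did not were GADD45A, E2F7, PPM1D, RRM2B, TP53I3, ACER2 and PHLDA3, each lost without untreated replicate 2 and all but ACER2 without H2O2 replicate 2. Of all genes 2.39% and 2% were called in these fits, against 9.81% with every library. None of the 5 NACET calls in control cells held in each fit. Their number was 0 without NACET replicate 2, 1 without untreated replicate 2, 2 without untreated replicate 1, 3 without untreated replicate 3 or NACET replicate 1 and 4 without NACET replicate 3. The share of all genes called fell too, from 2.75% to 0.223%, 0.252%, 0.42%, 1.37%, 0.554% and 2.43% in that order of libraries. The 3 NACET calls in NRF2 ΔC cells became 0 without untreated replicate 2 or 3 or NACET replicate 2 or 3, where at most 2 genes in all were called. They became 6 without NACET replicate 1, where 3.38% of all genes were called. With the replicate number as a block, NACET called 10 targets in NRF2 ΔC cells in place of 3, of which 8 were lower (CDKN1A, BTG2, DDB2, RRM2B, SESN1, FDXR, EDA2R and TP53INP1) and 2 higher (E2F7 and PLK3), where 8.82% of all genes were called.

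Whether the responses differed between the lines was tested with the interaction of treatment and line, called on the adjusted p alone. For H2O2 the interaction was positive, meaning a larger log2 fold change in NRF2 ΔC cells, for 30 of 34 targets, where 52.3% of all genes were positive, and the median was 0.36 against 0.02 over all genes. None was called without a block (0.0214% of all genes were). With edgeR's quasi-likelihood test 12 targets had an unadjusted p under 0.05, all with a larger response in NRF2 ΔC cells. The share of all genes at that unadjusted limit is not given, here or for later counts, so those counts have no background. DESeq2 called 1 target, TP53I3, where 0.503% of all genes were called. The largest values were GDF15 (1.69 ± 0.97), SESN2 (1.16 ± 0.31, adjusted p = 0.379), TP53I3 (0.85 ± 0.20, adjusted p = 0.248), FDXR (0.73 ± 0.27, adjusted p = 0.732) and NINJ1 (0.70 ± 0.18, adjusted p = 0.343). With a block of the replicate number TP53I3 and NINJ1 were called (adjusted p = 0.0418 and 0.0351), where 1.18% of all genes were. A block within each line called 11 targets, all larger in NRF2 ΔC cells: CDKN1A, BTG2, GADD45A, SESN2, TP53I3, FDXR, CMBL, TNFRSF10B, PHLDA3, NINJ1 and DRAM1, where 6.91% of all genes were called. Without a block, leaving out 1 sample gave a call only for H2O2 replicate 1 of NRF2 ΔC cells, 1 target (0.0776% of all genes). The pair of that library and untreated replicate 1 had the smallest response of the 3, with a median log2 ratio over the targets of 0.84. The other pairs were at 1.35 and 1.11, and those of control cells at 0.60 to 0.69. The median interaction was 0.43 without that H2O2 library and 0.46 without untreated replicate 1 of NRF2 ΔC cells. Which library of the pair set its small response was not tested.

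**Figure D3:**
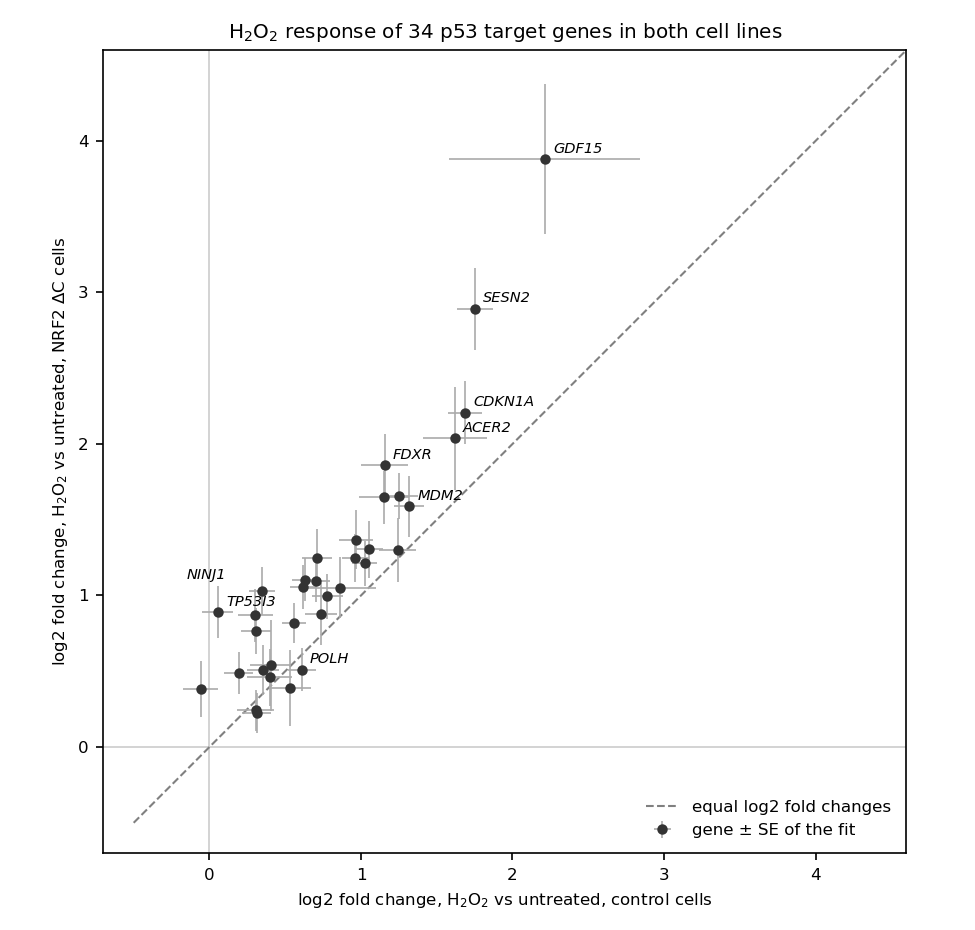
Log2 fold change with H2O2 against untreated in control cells (horizontal) and in NRF2 ΔC cells (vertical) for 34 p53 targets, with bars of 1 SE and a dashed line of equal change. Most points lie above the line, and SESN2 and GDF15 lie farthest to the upper right.

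For NACET the interaction had a median of -0.00 over 34 targets, 16 were positive, and none was called (0.0643% of all genes were). With edgeR 1 target had an unadjusted p under 0.05, PLK2, and DESeq2 called none. Untreated NRF2 ΔC and control cells were also compared. None of 33 targets was called there (3.85% of all genes were), 3 had an unadjusted p under 0.05 with edgeR (SESN2 0.34 ± 0.12, RRM2B 0.41 ± 0.17 and GADD45A -0.25 ± 0.10), and DESeq2 called none. The log2 differences of the 33 ran from -0.25 to 0.41 with a median of 0.07.

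The genes that act on p53, and other genes of the pathway, were described by lists. MDM4, the relative of MDM2 that holds p53 inactive, had means of 38.8 to 53.5 CPM and was called in no comparison. Of 20 tested regulators of p53, 1 changed with H2O2 in each line, PPP1R13L (iASPP, an inhibitor of p53) with -0.82 in control and CHEK1, a checkpoint kinase, with -0.89 in NRF2 ΔC cells, the latter lost without untreated replicate 2 or 3 or H2O2 replicate 2. Of all genes 3.37% and 5.55% were called lower in these comparisons. No regulator was called with NACET by edgeR or DESeq2, and edgeR gave an unadjusted p under 0.05 to 3 in control and 1 in NRF2 ΔC cells. Of 25 tested members of a second list of p53 targets, 9 rose with H2O2 in control cells, and 10 rose and 1 fell in NRF2 ΔC cells. Of all genes 2.96% were called higher in control cells, and 4.26% higher and 5.55% lower in NRF2 ΔC cells. Of the 9 calls in control cells 3 held without H2O2 replicate 2 and 5 without untreated replicate 2, and of the 11 in NRF2 ΔC cells 5 held without H2O2 replicate 2 or untreated replicate 2 or 3 and 6 without H2O2 replicate 3. PMAIP1 (NOXA) and BBC3 (PUMA), activators of apoptosis, rose by 1.03 and 0.78 in control and by 1.502 and 1.53 in NRF2 ΔC cells, and THBS1, a matrix protein, fell by 1.30 in NRF2 ΔC cells. With NACET 3 of the 25 rose and 1 fell in control cells, among them KITLG (1.25) and PMAIP1 (1.04), which rose, and BBC3, which fell by 0.95, and 2 rose in NRF2 ΔC cells. Of all genes 1.39% were called higher and 1.35% lower in control cells, and 0.458% higher in NRF2 ΔC cells. All 4 NACET calls in control cells were lost without untreated replicate 1 or 2 or NACET replicate 2, and both in NRF2 ΔC cells without replicate 2 or 3 of either group. The calls of PMAIP1 with H2O2 were lost without untreated replicate 2 or H2O2 replicate 2, as was that of BBC3 in control cells.

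Cell cycle genes that p53 represses through p21 and the DREAM complex moved with H2O2 in NRF2 ΔC cells, where 14 of 18 fell. Of all genes 5.55% were called lower there. PLK1, a mitotic kinase, fell by 2.56, CDC20 by 2.42, BUB1 by 2.27 and AURKA by 1.92 on the log2 scale, and the list's median was -1.55. Of the 14, CDC20 and BUB1 were among 6 that held without each library in turn, and 7 held without untreated replicate 2, untreated replicate 3 or H2O2 replicate 2. In control cells none of the 18 was called with H2O2 by edgeR or DESeq2, 0 had an unadjusted p under 0.05 with edgeR, and the median was -0.19. The summed level of the list was 543 to 890 CPM in NRF2 ΔC cells with H2O2 and 1310 to 2283 CPM untreated. In control cells it was 1206 to 1430 CPM with H2O2 and 971 to 1644 CPM untreated. Between untreated lines all 18 were higher in NRF2 ΔC cells, where 52.5% of all genes were, with a median of 0.35 and no call. The interaction for H2O2 was negative for all 18. None was called by edgeR without a block, where 14 had an unadjusted p under 0.05. With the replicate block 14 were called, where 1.18% of all genes were, and DESeq2 called 9, where 0.503% of all genes were called. Integrated stress response genes, which ATF4 induces when translation is restrained, rose with H2O2 for 5 of 8 in control and 6 of 8 in NRF2 ΔC cells. Of all genes 2.96% and 4.26% were called higher. CHAC1, a glutathione-degrading enzyme, rose by 3.69 and 4.99, ASNS by 3.04 and 3.42, TRIB3 by 2.20 and 3.81, and ATF3 by 1.61 and 2.74, and each of these calls held without each library in turn. SESN2 and GDF15 are known to respond to this pathway too, and its part in their rise was not tested.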

How the data were processed

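The authors sequenced TruSeq libraries of 18 samples, mapped reads to hg19 with TopHat2 2.1.0, counted them per gene with HTSeq 0.11.2 without regard to strand, removed ribosomal RNA genes and deposited whole-number counts per symbol. Their annotation is not given in the sources used here. From 72.1 to 74.2% of the reads of a library were counted on genes, and summary lines that name no gene were left out.

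Groups and replicate numbers came from the labels. Each pair of groups was fitted with edgeR 4.0.16 in R 4.3.3 (filterByExpr, TMM, quasi-likelihood test, Benjamini-Hochberg over all genes tested), and the interactions over 12 samples. CPM were TMM-normalized over all 18 libraries, ± is the SE of the fit, and log2 fold changes are those of the fit. Alternatives were DESeq2 1.42.0, RLE and upper-quartile scaling, other filters, fits of all samples at once, a block by replicate number, other fold limits and leaving out each sample. On simulated counts of NACET against untreated control cells, with 200 of 13695 genes changed by a log2 fold change of 1, the test recovered 158 with 7 false calls.

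Same-numbered samples of a cell line deviated together (correlations of 0.442 to 0.846 over 12848 genes), so the numbers pair samples within a line. The main fits and those with a sample left out do not use this pairing, and the fits with a block do. What they mark is not stated in the labels. Counts of replicates in all 18 pairs lay further apart than sampling noise.

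The members and gene lists were chosen with earlier results of these data known. Values per sample are given for the 24 called members with the largest changes, and from each other list at most 4 called genes with the largest changes are named, beside MDM4 and NFE2L2. BBC3 and THBS1 were named outside this rule after their values were seen. Exon overlaps were taken from GENCODE on GRCh37. Results for some genes are not reported here.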

Additional observations from a re-analysis of the deposited data

How the results depend on the processing

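Numbers of called targets stayed within 1.5 times the reported number in 123 of 145 recomputations. These include recomputations in which both numbers were 0, as for the untreated lines and the NACET difference. The 22 beyond that limit were mostly of NACET against untreated cells. No log2 fold change of a called target reversed in any alternative run, and 1276 of 1391 recomputations kept the call. The median log2 fold change of all genes moved by at most 0.04. A fold limit of 1 left 1 target with NACET in control cells, 10 with H2O2 in control cells, 1 with NACET in NRF2 ΔC cells and 14 for H2O2 against NACET in control cells. Of all genes 1.14%, 2.06%, 0.65% and 1.56% were called at that limit, against 2.75%, 6.33%, 1.39% and 3.67% at the limit of 0.6. With NACET in NRF2 ΔC cells DESeq2 called 6, the fit of all 18 samples 6 and the replicate block 10 (4.32%, 4.53% and 8.82% of all genes). For the difference of the H2O2 response between the lines DESeq2 called 1, the replicate block 2 and the replicate block within each cell line 11 (0.503%, 1.18% and 6.91% of all genes). In comparisons of 2 groups within a line the block otherwise changed the call of E2F7, EDA2R, GDF15, ZMAT3 and the genes named beside their values, and no other call. Between the untreated lines same-numbered samples correlated at 0.682, -0.232 and 0.663 for replicates 1, 2 and 3. Whether the numbers pair samples between the lines is thus unclear. The block left the comparison of untreated lines at 0 calls. Without 1 sample at a time, the number called ranged in control cells from 0 to 4 (NACET) and 17 to 20 (H2O2), 0 to 6 and 18 to 29 in NRF2 ΔC cells, 19 to 25 for H2O2 against NACET in control cells, 19 to 29 in NRF2 ΔC cells (19 without H2O2 replicate 2), and 0 to 1 for the difference of the H2O2 response. It stayed at 0 for the untreated lines and the NACET difference. Where a number moved, the cause was not tested, apart from the stricter limit itself. Depth limits GDF15, ACER2, SPATA18 and TNFRSF10C.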
